A study of Homo sapiens with 9 samples.

Results

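The 10 genes described here encode parts of the NOTCH pathway. They are the receptors NOTCH1 and NOTCH2, the DNA-binding protein RBPJ with its coactivators MAML1 and MAML2, the corepressor SPEN, the transcriptional repressors HES1 and HES4, and the ubiquitin ligases DTX1 and DTX4. The genes were picked by symbol for their roles in the pathway, with earlier results of these data known, and are 10 of the 59050 symbols in the count table. Of these, 9 passed the filter on low values, a CPM (read counts scaled to the size of the library) above 1 in at least 3 samples, and HES4 did not.

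A NOTCH receptor is activated by a DLL or JAG ligand on a neighbouring cell, after which ADAM proteases and γ-secretase cut it and release its intracellular domain. In the nucleus this domain joins RBPJ and a MAML protein and switches on targets such as the HES and HEY repressors. Without the domain, RBPJ works with corepressors such as SPEN to keep the same targets low. In CLL, NOTCH1 is a recurrently mutated gene, and the pathway is known to be engaged in the lymphoid tissues, where leukemic cells touch other cells.

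MEC1 is an established cell line derived from CLL. RNA was sequenced from 3 samples in conventional culture (2D) and from bioprinted hydrogel scaffolds (3D), with 3 samples harvested at day 7 and 3 at day 14. The study asked how the transcriptome differs between the culture settings and over time in the scaffold. All groups were 1 cell line in the same RPMI medium with serum, without another cell type, and the labels give no harvest day for the 2D samples. The sample titles call the cells MECPGK, a name that the sources used here do not explain. RNA of the scaffolds came from TRIzol, then a separate DNase step and a column kit, whereas RNA of the 2D cultures came from the column kit with its own DNase wash and no TRIzol, so that the extraction and the culture setting cannot be told apart. The labels do not say whether replicates were separate cultures, and the p-values then measure only the spread between these samples, which may be technical.

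Library totals in the count table ran from 54662799 to 85968686. Replicate pairs differed well beyond counting error, by a chi-square of 22.5 to 81.9 per gene in 2D and at day 7 and of 155 to 305 at day 14, with replicate 1 the farthest from the other two both at day 7 and at day 14. All 7 of 7 B-cell markers were expressed in each group, and their summed level was 2579 to 2604 CPM in the 2D samples, 2836 to 3544 by day 7 and 3510 to 3851 by day 14. The markers did not all follow the sum, since CD22 was lower than in 2D at day 7 (log2 fold change -1.12, adjusted p = 0.000736, edgeR) and at day 14 (-0.71, adjusted p = 0.014). Markers of T cells summed to 312 to 357 CPM in 2D, 461 to 489 at day 7 and 529 to 717 at day 14, but this was almost entirely TRAC, while CD3D had at most 2 counts in any sample. Stromal markers summed to 10.3 to 11.4, 2.35 to 5.32 and 2.67 to 8.89 CPM in the 3 groups, and myeloid markers to 1.69 to 2.33, 1.17 to 2.70 and 3.87 to 5.14 CPM. The myeloid sum at day 14 came mainly from ITGAM, which was higher at day 14 than at day 7 (log2 fold change 2.44, adjusted p = 0.0119, edgeR), while LYZ had at most 2 counts in any sample. Of the stromal markers, PDGFRB was lower at day 7 than in 2D (-3.00, adjusted p = 0.000339, edgeR) and higher at day 14 than at day 7 (2.20, adjusted p = 0.00481). COL1A1 was lower at day 7 (-1.21, adjusted p = 0.0334, edgeR) and changed by 0.09 between the time points. The part of these markers in the changes of the genes described here was not tested. Mitochondrial transcripts took 2.30% to 2.83% of the counts in 2D, 1.44% to 1.64% at day 7 and 1.62% to 2.82% at day 14, and ribosomal protein genes 4.21% to 4.93%, 1.78% to 1.94% and 2.00% to 3.43%. In bulk RNA, fewer cells that express a gene and less RNA per cell cannot be told apart.

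Of the 9 genes tested, HES1 fell and DTX4 rose at day 7 against 2D, HES1 and DTX4 rose at day 14 against 2D, and HES1 and DTX1 rose from day 7 to day 14. The rise of DTX1 rested on day 14 replicate 1, without which it was 0.29 in place of 1.07 on the log2 scale (adjusted p = 0.256, edgeR). The receptors, RBPJ, both MAML coactivators and SPEN passed the test in none of the 3 comparisons. By the quasi-likelihood test of edgeR, with p-values adjusted by Benjamini-Hochberg over all 13463 genes tested, 2 of the 9 (22.2%) were thus called at day 7 against 2D, where 43.4% of all genes were called. At day 14 against 2D the share was again 2 of 9, beside 36.2% of all genes, and between day 7 and day 14 it was 2 of 9 beside 28.1%. These are counts of only 9 genes, and whether their shares differ from those of all genes was not tested. Both comparisons with 2D use the same 2D samples, and each 3D group enters 2 of the 3 comparisons, so the 3 counts are not independent.

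By direction, 1 of the 9 was called higher at day 7 (22.2% of all genes) and 1 lower (21.2%). At day 14 against 2D, 2 were called higher (19% of all genes) and 0 lower (17.2%), and DESeq2 and an unadjusted p under 0.05 from edgeR also gave 0 lower. From day 7 to day 14, 2 were called higher (14.5% of all genes) and again 0 lower (13.6%), with 0 lower by DESeq2 and at an unadjusted p under 0.05. Counting genes whose groups did not overlap, 1 of the 9 was higher (32.2% of all genes) and 2 were lower (32.4%) at day 7, and 2 were higher (24.2%) and 1 was lower (25.5%) at day 14 against 2D. Between the time points 1 was higher (18.9%) and 0 were lower (20.5%). In either direction this made 3 of 9 at day 7 (64.6% of all genes), 3 of 9 at day 14 (49.7%) and 1 of 9 between the time points (39.3%). The median log2 fold change of the 9 genes was -0.07 at day 7, 0.32 at day 14 and 0.16 between the time points, where the median of all genes was 0.00, 0.02 and 0.00. With 3 samples against 3, an exact two-sided permutation test of a single gene cannot give a p under 0.1.

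**Figure D1:**
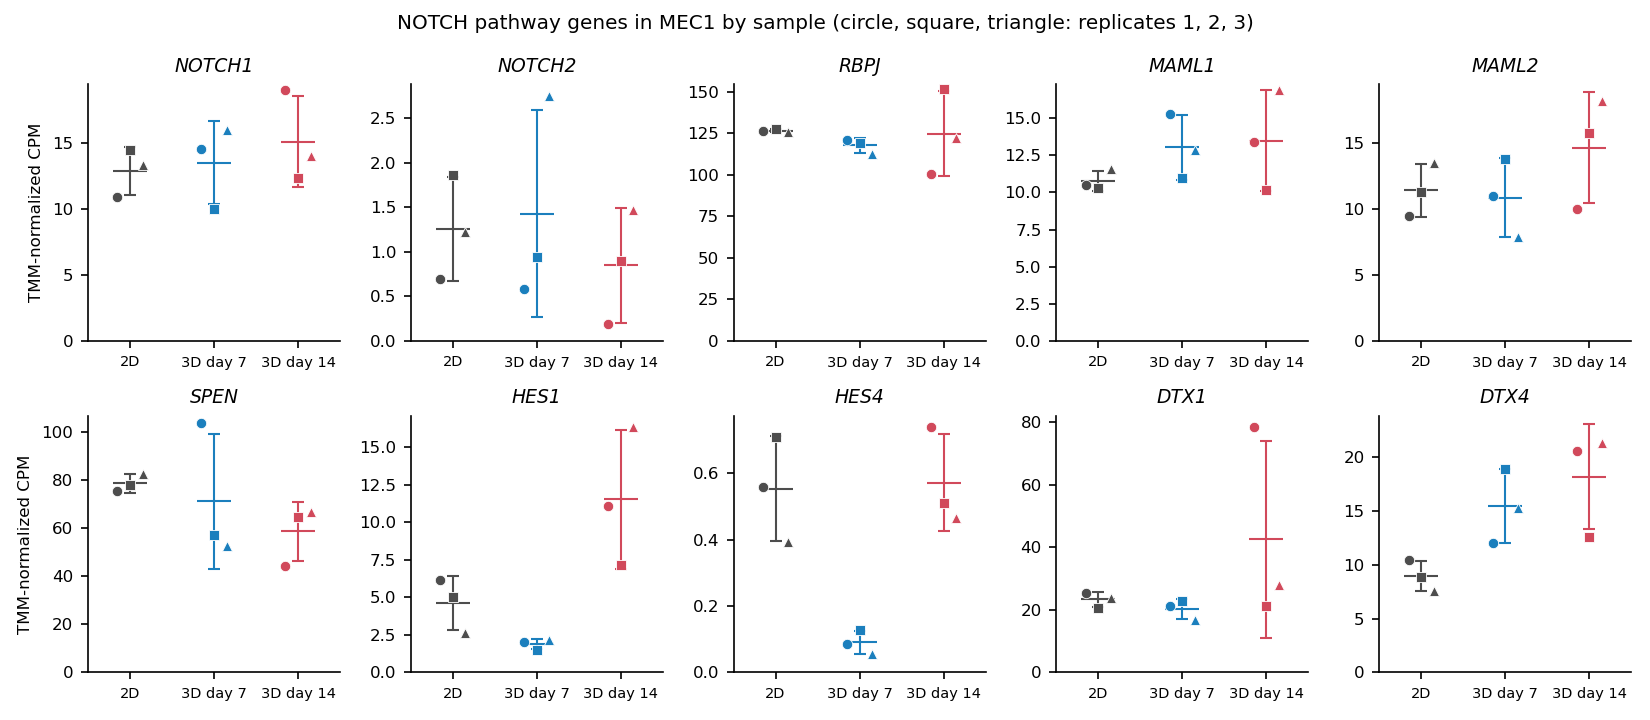
Each panel plots 1 gene, with the 3 culture groups on the horizontal axis and TMM-normalized CPM on the vertical axis, which starts at 0. Points are samples (circle, square and triangle for replicates 1, 2 and 3), the horizontal line is the mean and the whisker the SD (n = 3). HES1 and HES4 are lowest at day 7, DTX4 lies above 2D in every 3D sample, and DTX1 at day 14 is high in replicate 1 alone, at 78.5 CPM against 21.2 and 27.8.

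Levels of different genes were compared per kilobase of exon, as RPKM. RBPJ was the most abundant transcript of the pathway core in every group, at 19.5 ± 0.14 RPKM in 2D, 18.1 ± 0.67 at day 7 and 19.2 ± 3.96 at day 14 (SD, n = 3). DTX1 and SPEN came next in 2D, at 6.74 ± 0.70 and 6.34 ± 0.30 RPKM, and their ranges overlapped. HES1, MAML1, MAML2, DTX4 and NOTCH1 followed between 2.94 and 1.35 RPKM, each overlapping its neighbour in the order. HES4, at 0.533 ± 0.152 RPKM, and NOTCH2, at 0.0781 ± 0.0364, closed the order, and neither overlapped the gene above it.

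The order changed mainly through HES1, which stood in position 4 of 10 in 2D, position 8 at day 7 and position 3 at day 14. At day 7, DTX4, MAML1, MAML2, NOTCH1 and HES1 formed a chain of overlapping ranges between 2.55 and 1.20 RPKM, and HES4 (0.0867 RPKM) fell into the range of NOTCH2 (0.0886). At day 14, RBPJ, DTX1, HES1 and SPEN formed a chain of overlapping ranges, at 19.2, 12.3, 7.32 and 4.73 RPKM. SPEN did not overlap DTX4, the next gene in the order.

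NOTCH1 and NOTCH2 are the transmembrane receptors that carry the signal. NOTCH1 (chr9:136494433-136546048 of GRCh38, minus strand, 34 exons after merging) was at 10.9, 14.5 and 13.4 CPM in the 2D replicates, at 14.6, 9.998 and 16.04 at day 7 and at 19.0, 12.3 and 14.0 at day 14. The 3 groups overlapped throughout. The log2 fold change of NOTCH1 was 0.07 at day 7 (SE 0.23, 95% interval -0.43 to 0.56) and 0.23 at day 14 (SE 0.23, interval -0.27 to 0.72), so a doubling of its transcript lay outside both intervals.

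NOTCH2 (chr1:119911553-120069662, minus strand) was near the limit of the filter. Its level was 0.691, 1.86 and 1.22 CPM in 2D, 0.587, 0.947 and 2.75 at day 7 and 0.185, 0.892 and 1.47 at day 14. Samples of each group spread over several fold, and the intervals were correspondingly wide, from -1.32 to 1.67 on the log2 scale at day 7 and from -2.09 to 0.95 at day 14. No change of NOTCH2 was detected, and these intervals are too wide to show that its level was steady. NOTCH2NLA, a near-identical partial copy of NOTCH2, was itself at 0.710 to 1.64 CPM, and how reads that fit several places were counted is not given in the sources used here. Per kilobase, NOTCH1 exceeded NOTCH2 in each of the 9 samples, by 13.1 to 26.6 times in 2D, 9.82 to 41.9 times at day 7 and 16.1 to 173 times at day 14.

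RBPJ is the DNA-binding protein on which the pathway converges, and its transcript was steady. RBPJ (chr4:26319710-26435131, plus strand) was at 126, 128 and 126 CPM in 2D, at 121, 119 and 113 at day 7 and at 101, 152 and 122 at day 14. The day 7 samples all lay below the 2D samples, as did 32.4% of all genes, but the difference of -0.10 on the log2 scale (SE 0.15, interval -0.43 to 0.23) did not pass edgeR's quasi-likelihood test (Benjamini-Hochberg adjusted p = 0.607). At day 14 it was -0.02 (interval -0.35 to 0.31). The 4 RBPJ pseudogenes with rows of their own, RBPJP2, RBPJP5, RBPJP6 and RBPJP7, had 0 counts in every sample.

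MAML1 and MAML2 bridge RBPJ and the receptor's intracellular domain to histone acetyltransferases. MAML1 (chr5:179732822-179777283) was at 10.5, 10.3 and 11.6 CPM in 2D, 15.3, 10.9 and 12.9 at day 7 and 13.4, 10.1 and 16.9 at day 14. MAML2 (chr11:95976598-96343195) was at 9.47, 11.3 and 13.5 CPM, then 10.98, 13.8 and 7.85, then 9.995, 15.8 and 18.2. Neither gene had groups that separated. The log2 fold changes against 2D were 0.27 and 0.32 for MAML1 and -0.07 and 0.36 for MAML2 at day 7 and day 14, with SEs of 0.22 and 0.26. Of the exonic bases of MAML2, 8.96% are shared with genes on the opposite strand (AP000779.1 and MIR1260B), and the strand setting of the counting is not given in the sources used here.

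SPEN, a large corepressor that RBPJ recruits in the absence of the intracellular domain, was not called in any comparison. SPEN (chr1:15847707-15940456) was at 75.2, 77.7 and 82.6 CPM in 2D and at 103, 57.1 and 52.5 at day 7, with replicate 1 above and the other two below every 2D sample. At day 14 it was at 44.4, 64.7 and 66.8 CPM, and all 3 samples lay below 2D, as for 25.5% of all genes. The log2 fold change was -0.14 at day 7 (SE 0.24) and -0.42 at day 14 (SE 0.24, interval -0.94 to 0.10), and neither passed edgeR's quasi-likelihood test (Benjamini-Hochberg adjusted p = 0.654 and 0.187). Without day 7 replicate 1 the day 7 value was -0.54 and passed it (adjusted p = 0.0377, against a range of 0.0377 to 0.969 over 20 alternatives).

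HES1 and HES4 are transcriptional repressors of the basic helix-loop-helix family and direct targets of the NOTCH complex. Both had their lowest level at day 7. Since RBPJ binds DNA at the core letters TGGGAA, a stretch of both promoters is shown, covering bases 160 to 61 before the RefSeq start of the gene, 5′ to 3′ on the strand of the gene, with TGGGAA in capitals. The sequences are those of RefSeq on GRCh38.p14, at chr3:194135988-194136087 (plus strand) for HES1 and at chr1:1000158-1000257 (minus strand) for HES4.
HES1: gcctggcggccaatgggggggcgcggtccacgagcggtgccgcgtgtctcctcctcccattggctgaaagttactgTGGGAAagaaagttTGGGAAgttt
HES4: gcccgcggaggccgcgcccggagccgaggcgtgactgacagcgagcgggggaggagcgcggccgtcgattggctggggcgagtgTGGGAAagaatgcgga
The letters stand at 84 to 79 and 70 to 65 bases before the start of HES1 and at 76 to 71 bases before that of HES4. The last 15 bases shown for HES4 lie in the exon of the deposited gene model. They include all of the marked TGGGAA except its leading T, so these letters are upstream of the RefSeq start but not of that model.

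RefSeq promoter windows were found for 9 of the 10 genes (none for DTX1), and TGGGAA on either strand was also present in a window of RBPJ, at 72 to 67 bases before the start and, on the opposite strand, at 115 to 110. Of 35116 windows of 250 bases before a RefSeq start, 7321 (20.8%) held TGGGAA on either strand, and 1906 (5.43%) held the longer GTGGGAA, which contains it and occurs in the windows of HES1, HES4 and RBPJ. A match of letters is a description of the sequence and not a measured binding site.

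HES1 (chr3:194136148-194138732, plus strand) was at 6.18, 5.05 and 2.65 CPM in 2D, at 2.04, 1.49 and 2.14 at day 7 and at 11.1, 7.13 and 16.3 at day 14. None of the groups overlapped, with every day 7 sample below 2D and every day 14 sample above it. The shares of mitochondrial and ribosomal protein counts were also lower at day 7 than in 2D, and their part in this result was not tested. The transcript was 2.44-fold lower at day 7 than in 2D (log2 fold change -1.29, SE 0.36, adjusted p = 0.0122 by the quasi-likelihood test of edgeR, Benjamini-Hochberg adjusted), and 2.49-fold higher at day 14 than in 2D (1.32, SE 0.35, adjusted p = 0.0117).

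Between the time points HES1 rose 6.09-fold (log2 fold change 2.61, SE 0.37, interval 1.80 to 3.42, adjusted p = 0.000599 by edgeR's quasi-likelihood test). This value ranked 243 by p among the 13463 genes tested and passed the threshold under all 20 alternatives, where it lay between 2.27 and 2.86. The 2 differences from 2D rested more on single samples. At day 7 the value was -1.06 without 2D replicate 1 (adjusted p = 0.0555, against 0.000133 to 0.0555 over the alternatives). At day 14 it was 1.02 without 2D replicate 3 and 0.98 without day 14 replicate 3 (adjusted p = 0.0573 and 0.0594, against 0.000284 to 0.0594 over the alternatives, edgeR).

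HES4 (chr1:998962-1000172, minus strand) was counted with few reads, 34, 66 and 30 in 2D, 5, 7 and 3 at day 7 and 40, 27 and 26 at day 14. This corresponds to 0.559, 0.710 and 0.393 CPM, then 0.0863, 0.127 and 0.0569, then 0.739, 0.512 and 0.466, where 3 counts are worth 0.0323 to 0.0569 CPM. All day 7 samples lay below all others, and the 2D and day 14 samples overlapped. In a fit without the filter, run for this gene after the data were seen, HES4 was lower at day 7 than in 2D (log2 fold change -2.59, SE 0.84, adjusted p = 0.0226) and higher at day 14 than at day 7 (2.58, SE 0.84, adjusted p = 0.0353), by edgeR's quasi-likelihood test with adjustment over 51726 genes. That fit called 5.56% of all genes lower at day 7 and 3.35% higher from day 7 to day 14. Of its 51726 genes only 13463 passed the filter, and the main fit called 21.2% of those lower at day 7 and 14.5% higher between the time points. The difference of HES4 between day 14 and 2D was -0.01 (SE 0.76).

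The day 7 call of HES4 was lost in 5 of 14 alternatives, with values between -2.37 and -2.57 without 2D replicate 1 or 2 or day 7 replicate 1 or 3 and of -2.09 with the GC trend removed (adjusted p over all 14 of 0.000415 to 0.137, edgeR and DESeq2). The call between the time points was lost in 7 of 14, with 2.35 to 2.95 without 2D replicate 1 or 2, any day 7 replicate or day 14 replicate 1 and 2.14 with the GC trend removed (0.000597 to 0.163). HES4 is among the transcripts richest in G and C, at 73.9%, and the fifth of tested genes with the highest GC content had medians of -0.10, 0.17 and 0.25 on the log2 scale in the 3 comparisons. HES1, at 50.0% GC, kept its direction and its calls with the GC trend removed, at -1.40, 1.26 and 2.66.

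The same course was seen in HEY1, a HES-related target and the most abundant of its family here. HEY1 was at 28.9, 28.5 and 33.2 CPM in 2D, at 17.4, 13.1 and 15.8 at day 7 and at 39.6, 53.7 and 43.1 at day 14. The 3 groups did not overlap, with day 7 lowest and day 14 highest. By the quasi-likelihood test of edgeR, Benjamini-Hochberg adjusted, HEY1 was 1.96-fold lower at day 7 than in 2D (log2 fold change -0.97, SE 0.17, adjusted p = 0.000797), 1.51-fold higher at day 14 than in 2D (0.59, SE 0.17, adjusted p = 0.0174) and 2.95-fold higher at day 14 than at day 7 (1.56, SE 0.18, adjusted p = 0.000145). The difference between day 14 and 2D lost its call in 5 of 20 alternatives (adjusted p 0.00372 to 0.117), among them without 2D replicate 1 (0.54), 2D replicate 2 (0.53) and day 14 replicate 2 (0.45).

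NRARP, a feedback inhibitor that NOTCH induces, was at 2.43, 1.52 and 1.81 CPM in 2D, 1.00, 0.874 and 0.872 at day 7 and 2.99, 0.759 and 2.64 at day 14. Its day 7 samples lay below 2D, at a log2 fold change of -1.06 (SE 0.47) that did not pass edgeR's quasi-likelihood test (Benjamini-Hochberg adjusted p = 0.0859), and its day 14 samples reached from below day 7 to above 2D. HES6, an inhibitor of HES1, averaged 6.62, 8.63 and 9.64 CPM over the 2D, day 7 and day 14 samples, and HEY2 averaged 0.538, 1.22 and 1.19. Both means were higher at day 7 than in 2D, unlike those of HES1, HES4, HEY1 and NRARP. Every day 7 sample of HEY2 lay above 2D (log2 fold change 1.17, SE 0.50, adjusted p = 0.0753, edgeR), at a level near the limit of the filter. For HES6 the value was 0.38 (SE 0.25), and its day 7 and 2D samples overlapped. Neither gene was called in any comparison. HES2, HES5, HES7 and HEYL did not pass the filter, and HES5 had 0 counts in all 3 samples of 2D. In all, 4 of the 8 listed HES, HEY and NRARP targets outside the 10 genes were tested, and 1 of the 4 was called lower at day 7 (21.2% of all genes), 1 higher at day 14 (19%) and 1 higher between the time points (14.5%), each time HEY1.

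**Figure D2:**
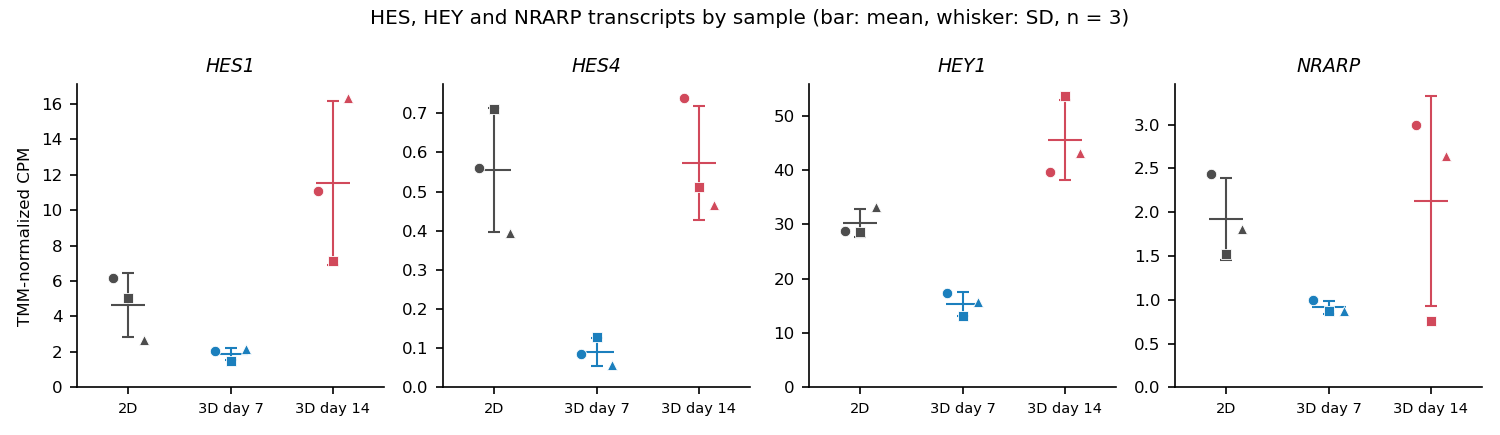
TMM-normalized CPM (vertical axis, from 0, a scale for each panel) of 4 NOTCH target genes in 2D, 3D day 7 and 3D day 14. Points are samples, the line is the mean and the whisker the SD (n = 3). HES1 and HEY1 separate the 3 groups, HES4 separates day 7 from the rest, and NRARP at day 14 spreads from 0.759 to 2.99 CPM. HES6 and HEY2, which had higher means at day 7 than in 2D, are not plotted.

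DTX1 and DTX4 belong to the Deltex family of ubiquitin ligases, which act on NOTCH receptors, and DTX1 is itself a target of the pathway in lymphocytes. DTX1 (chr12:113057690-113098028) was at 25.4, 20.6 and 23.8 CPM in 2D, at 21.3, 22.7 and 16.8 at day 7 and at 78.5, 21.2 and 27.8 at day 14. Day 14 replicate 1 stood far above all other samples, replicate 3 lay slightly above the 2D and day 7 samples, and the groups overlapped. The log2 fold change was -0.20 at day 7 (SE 0.37), 0.87 at day 14 against 2D (SE 0.37, adjusted p = 0.0841) and 1.07 between the time points (SE 0.37, adjusted p = 0.0486), by the quasi-likelihood test of edgeR, Benjamini-Hochberg adjusted.

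The DTX1 call between the time points rested on 1 sample. Without day 14 replicate 1 the value was 0.29 (adjusted p = 0.256), and the call was lost in 12 of 20 alternatives (adjusted p 4.77e-05 to 0.256), including all those that left out a 2D or a day 7 sample, where the value was 0.98 to 1.18. With the GC trend removed the value was 0.67, and DTX1 has a GC content of 63.6%. Against 2D, the day 14 value passed the threshold in 3 of 20 alternatives, the DESeq2 Wald test (0.88), no filter (0.81) and the fit without day 14 replicate 2 (1.19), with adjusted p-values of 0.00159 to 0.764 over all 20, and it was 0.08 without day 14 replicate 1.

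DTX4 (chr11:59171430-59208588) was at 10.4, 8.90 and 7.57 CPM in 2D, at 12.0, 18.9 and 15.3 at day 7 and at 20.6, 12.6 and 21.4 at day 14. All 6 samples of the scaffolds were above all 3 of 2D, and the 2 time points overlapped. DTX4 was 1.72-fold higher at day 7 (log2 fold change 0.78, SE 0.24, adjusted p = 0.0195) and 2.03-fold higher at day 14 than in 2D (1.02, SE 0.24, adjusted p = 0.00594), by the quasi-likelihood test of edgeR, Benjamini-Hochberg adjusted. From day 7 to day 14 the difference was 0.24 (SE 0.24, interval -0.28 to 0.76).

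The day 14 call of DTX4 held in all 20 alternatives, between 0.83 and 1.23. The day 7 call was lost in 5 of them (adjusted p 0.00638 to 0.121), with total counts alone as the scaling (0.63) and without 2D replicate 2 (0.75), 2D replicate 3 (0.64), day 7 replicate 2 (0.58) or day 7 replicate 3 (0.75). DTX4 shares 1.30% of its exonic bases with MPEG1 on the opposite strand. Per kilobase, DTX1 exceeded DTX4 by 4.07 to 5.52 times in the 2D samples and by 1.92 to 3.10 times at day 7, without overlap, and by 2.28 to 6.68 times at day 14.

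**Figure D3:**
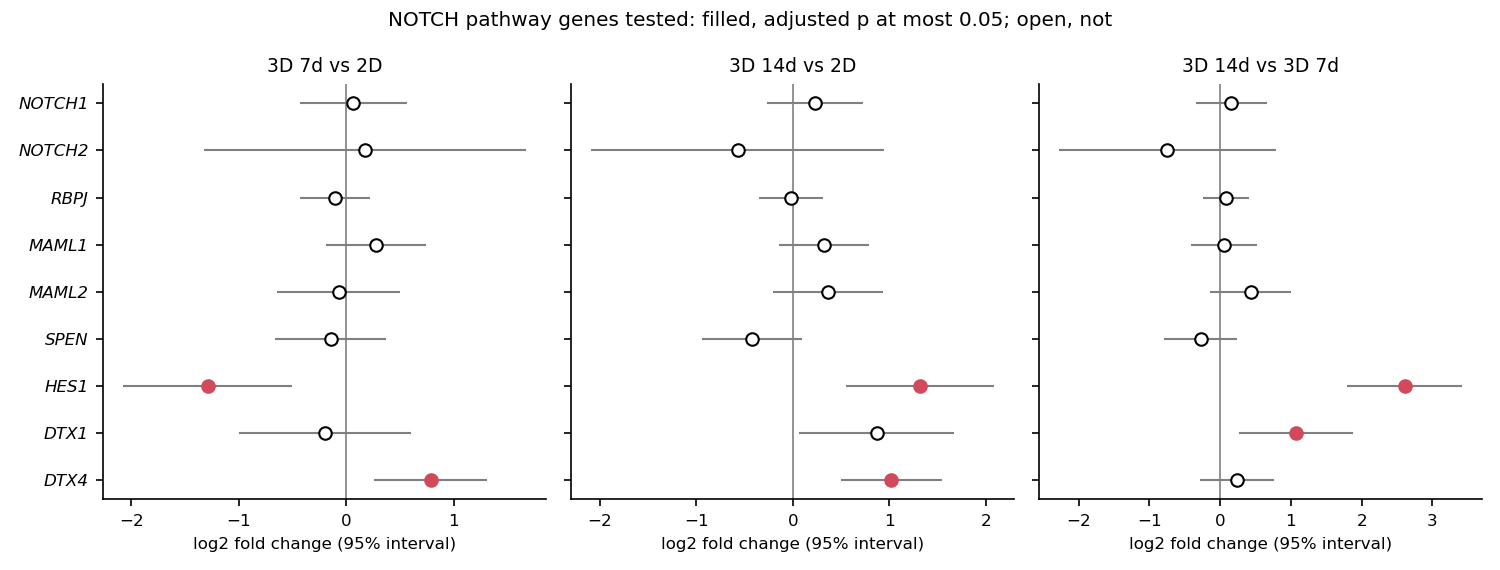
Log2 fold changes (horizontal axis) of the 9 genes tested in the 3 comparisons, with lines for 95% intervals from edgeR's fit. Filled points have an adjusted p of at most 0.05. HES1 is filled on the negative side at day 7 (-1.29) and on the positive side in the other two panels (1.32 and 2.61), DTX4 is filled in both comparisons with 2D (0.78 and 1.02), and the interval of NOTCH2 is the widest.

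The wider pathway was followed in 69 further genes listed by role, of which 53 were tested and 16 did not pass the filter. Of the 53, 10 were called higher and 8 lower at day 7 against 2D (34.0% called, beside 43.4% of all genes). At day 14 against 2D, 14 were higher and 3 lower (32.1%, beside 36.2%), and from day 7 to day 14, 15 were higher and 4 lower (35.8%, beside 28.1%). Their median log2 fold changes were 0.13, 0.19 and 0.07.

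**Figure D4:**
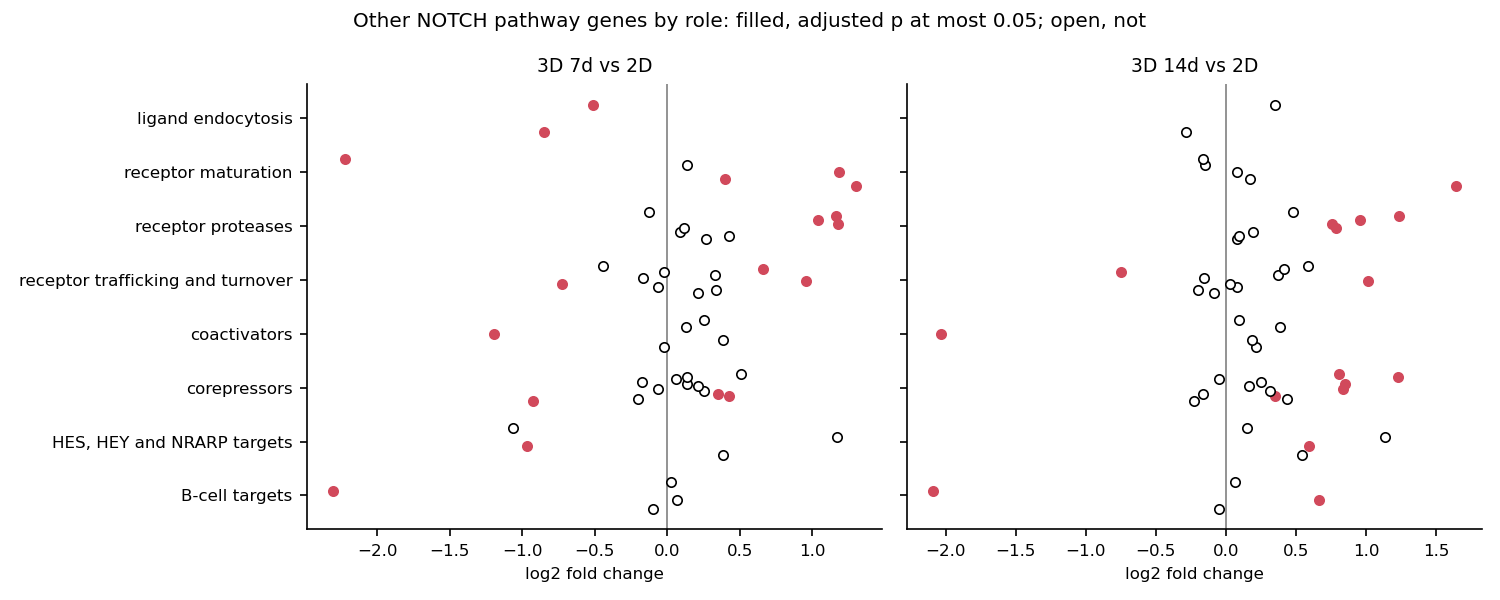
Log2 fold changes against 2D (horizontal axis) of tested NOTCH pathway genes outside the 10, at day 7 (left) and day 14 (right), 1 row for each role with at least 2 tested genes other than the ligands. Each point is a gene, filled where the adjusted p from edgeR is at most 0.05, and vertical scatter within a row has no meaning. Among the proteases 3 of 8 are filled on the positive side at day 7 and 4 of 8 at day 14, and the coactivators have 1 filled point, KAT2A, at -1.20 and -2.04.

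Among the receptors outside the 10 genes, NOTCH4 changed and NOTCH3 was barely present, with at most 13 counts in a sample. NOTCH4 was at 20.5, 20.3 and 19.4 CPM in 2D, at 24.9, 19.3 and 18.2 at day 7 and at 41.8, 39.6 and 30.5 at day 14. Day 14 stood above both other groups, and those overlapped. The rise was 0.89 on the log2 scale against 2D (SE 0.18, adjusted p = 0.00211) and 0.84 against day 7 (SE 0.18, adjusted p = 0.00487) by edgeR's quasi-likelihood test, and both calls held in all 20 alternatives.

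Of the 5 DLL and JAG ligands, which neighbouring cells present to the receptor, DLL1 and JAG1 were tested and neither was called. DLL1 averaged 1.36, 1.83 and 1.497 CPM over the 2D, day 7 and day 14 samples, and JAG1 averaged 5.45, 3.78 and 4.69. The other 3 ligands stayed below the filter, and their counts were singled out after their values were seen. JAG2 had 49, 169 and 86 counts in 2D, 3 in each day 7 sample and 4, 51 and 4 at day 14. DLL3 had 35, 35 and 38 counts in 2D, 1, 5 and 1 at day 7 and 22, 43 and 36 at day 14. The day 7 samples of both genes were at or near the level of 3 counts. In edgeR's fit without a filter, JAG2 and DLL3 were lower at day 7 than in 2D (adjusted p = 2.07e-06 and 0.00288) and higher at day 14 than at day 7 (adjusted p = 0.0144 and 0.00168), though the day 14 counts of JAG2 came mainly from replicate 2. That fit called 5.56% of all genes lower at day 7 and 3.35% higher from day 7 to day 14, where the main fit called 21.2% and 14.5% of genes past the filter. Of the 16 further pathway genes under the filter, the fit without a filter called JAG2, DLL3 and LFNG at day 7 and no others. Alternatives were not run for these genes. DLL4 had 35, 88 and 47 counts in 2D, 26, 0 and 2 at day 7 and 12, 10 and 7 at day 14, and was not called at either time against 2D (adjusted p = 0.086 and 0.124 in that fit). Both JAG2 (64.0%) and DLL3 (64.8%) are rich in G and C.

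MIB1 and MIB2, ubiquitin ligases that make ligands active by endocytosis, were the 2 tested of 4 such genes listed (NEURL1 and NEURL1B were under the filter), and both were lower at day 7, as were 21.2% of all genes. MIB1 was at 16.1, 15.7 and 19.1 CPM in 2D, 10.4, 8.83 and 8.85 at day 7 and 10.8, 14.1 and 16.7 at day 14, and fell by 0.85 on the log2 scale at day 7 (SE 0.20, adjusted p = 0.00424, edgeR). MIB2 averaged 49.4, 34.6 and 63.0 CPM and fell by 0.51 at day 7 (SE 0.19, adjusted p = 0.0466, edgeR). From day 7 to day 14, when 14.5% of all genes were called higher, they rose by 0.57 and 0.87 (adjusted p = 0.049 and 0.00662, edgeR). The day 7 call of MIB1 held in all 20 alternatives. The MIB2 value at day 7 lost its call in 9 of 20 (adjusted p 0.00201 to 0.757), among them without any one of the 2D samples, day 7 replicate 2 or 3 or day 14 replicate 2 (-0.49 to -0.60), and was -0.06 with the GC trend removed, where its rise between the time points also lost its call (0.21). The rise of MIB1 lost its call in 13 of 20 (adjusted p 0.00946 to 0.245), including all fits without 1 sample except that without day 14 replicate 1 (0.41 to 0.65).

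Of 5 tested genes that shape the receptor on its way to the surface, 3 were higher at day 7 (beside 22.2% of all genes), 1 was lower (21.2%) and 1, POGLUT1, was not called. POFUT1, which adds O-fucose to the receptor, averaged 30.8, 70.1 and 32.5 CPM in the 3 groups, and rose 2.28-fold at day 7 (log2 fold change 1.19, SE 0.28, adjusted p = 0.0048, edgeR). FURIN, the protease of the first cut in the Golgi, averaged 9.28, 22.9 and 29.0 CPM and rose by 1.30 at day 7 and 1.64 at day 14 (adjusted p = 0.00331 and 0.00106, edgeR). At day 14, FURIN was at 46.6 CPM in replicate 1 and at 18.5 and 21.9 in the others, all above the 2D samples.

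The fringe enzymes, which extend the O-fucose and shift the choice of ligand, include RFNG and MFNG, which were tested, and LFNG, which was under the filter. RFNG was at 7.94, 8.17 and 6.61 CPM in 2D, 2.28, 1.48 and 1.10 at day 7 and 12.0, 3.41 and 4.82 at day 14. It fell by 2.22 on the log2 scale at day 7 (SE 0.43, adjusted p = 0.00139) and rose by 2.06 to day 14 (SE 0.43, adjusted p = 0.00478), by edgeR's quasi-likelihood test, in all 20 alternatives, with a rise of 1.36 without day 14 replicate 1. MFNG, the most abundant fringe by counts, averaged 214, 282 and 242 CPM, and its rise of 0.40 at day 7 (adjusted p = 0.0434, edgeR) lost its call in 11 of 20 alternatives (0.00759 to 0.249), among them without any 2D sample or day 7 replicate 2 or 3 (0.30 to 0.39). LFNG had 13, 43 and 25 counts in 2D, 0, 1 and 1 at day 7 and 22, 1 and 6 at day 14, and was lower at day 7 than in 2D in edgeR's fit without a filter (adjusted p = 0.00474). That fit called 5.56% of all genes lower at day 7, where the main fit called 21.2% of genes past the filter. Alternatives were not run for LFNG. From day 7 to day 14 POFUT1 fell by 1.11 (adjusted p = 0.0122, edgeR), and by 0.99 without day 7 replicate 2, where it lost its call (adjusted p = 0.0512, against 3.85e-07 to 0.0512 over the alternatives). POGLUT1, which adds O-glucose, was not called in any comparison.

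The γ-secretase complex, which makes the cut that frees the intracellular domain, included subunits that rose at both times. PSEN2, a catalytic subunit, averaged 16.2, 36.2 and 38.1 CPM in the 3 groups, and the subunit nicastrin (NCSTN) averaged 107, 242 and 181. Both 3D groups of these genes lay above 2D without overlap. By edgeR's quasi-likelihood test, PSEN2 rose by 1.16 at day 7 and 1.24 at day 14 on the log2 scale (adjusted p = 0.000269 and 0.000261) and NCSTN by 1.18 and 0.76 (adjusted p = 0.000146 and 0.00322). These calls held in all 20 alternatives.

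Of the 8 proteases and subunits tested, 3 were called higher and 0 lower at day 7 (beside 22.2% and 21.2% of all genes), and 4 higher and 0 lower at day 14 (19% and 17.2%). Another at day 14 was APH1B, named after its values were seen, with an edgeR log2 fold change of 0.78 (adjusted p = 0.00202). APH1A, PSENEN and the sheddases ADAM10 and ADAM17, which make the cut before γ-secretase, were not called in either comparison with 2D. Of the exonic bases of ADAM17 and PSENEN, 28.6% and 39.9% are shared with other genes.

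Among 10 genes of receptor trafficking and turnover, 2 were called higher and 1 lower at day 7 (beside 22.2% and 21.2% of all genes), and 1 higher and 1 lower at day 14 (19% and 17.2%). DTX3L, a Deltex relative of DTX1 and DTX4, averaged 19.4, 37.6 and 39.2 CPM in the 3 groups, and rose by 0.96 and 1.02 (SE 0.17 and 0.18, adjusted p = 0.000898 and 0.000837, edgeR) in all 20 alternatives. DTX3 went the other way at day 7, from 30.4 to 18.4 CPM (log2 fold change -0.73, SE 0.18, adjusted p = 0.006, edgeR), and was at 31.1 CPM at day 14. DTX2 was not called in any comparison. NUMB, an endocytic antagonist of NOTCH named after its values were seen, was higher at day 7 (0.66, adjusted p = 0.017, edgeR). NEDD4, a ubiquitin ligase, averaged 8.92, 8.76 and 5.30 CPM and was lower at day 14 (-0.75, SE 0.23, adjusted p = 0.0243, edgeR), a call lost without 2D replicate 1 or 2 or day 14 replicate 1 or 2 (-0.58 to -0.77, adjusted p over 20 alternatives 0.00686 to 0.085).

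Of the 5 coactivators tested besides MAML1 and MAML2, only KAT2A was called, lower in all 3 comparisons (beside 21.2%, 17.2% and 13.6% of all genes). KAT2A, a histone acetyltransferase also known as GCN5, was at 67.3, 83.4 and 90.4 CPM in 2D, 34.6, 36.9 and 33.7 at day 7 and 20.0, 20.7 and 18.0 at day 14. The groups did not overlap, and each step was downward. It fell by 1.20 at day 7 and by 2.04 at day 14 on the log2 scale (SE 0.15 and 0.16, adjusted p = 8.32e-05 and 7.19e-06, edgeR), in all 20 alternatives. KAT2A shares 13.0% of its exonic bases with AC099811.2. EP300 and CREBBP, the acetyltransferases that MAML proteins recruit, had log2 fold changes of 0.38 and -0.02 at day 7 and 0.18 and 0.21 at day 14, and were not called. KAT2B and SNW1 were not called either.

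Of 12 tested genes listed as corepressors of the pathway, 2 were called higher and 1 lower at day 7 (beside 22.2% and 21.2% of all genes), 5 higher and 0 lower at day 14 against 2D (19% and 17.2%), and 5 higher and 1 lower, HDAC2, from day 7 to day 14 (14.5% and 13.6%). TLE3, a Groucho-type corepressor that works with HES proteins, was at 30.2, 34.5 and 26.2 CPM in 2D, 37.4, 27.8 and 34.8 at day 7 and 68.2, 79.4 and 65.1 at day 14. It rose by 1.23 on the log2 scale at day 14 (SE 0.17, adjusted p = 0.000197, edgeR). This call held in all 20 alternatives. CIR1, which links RBPJ to histone deacetylases, averaged 60.7, 31.9 and 51.8 CPM and was lower at day 7 (-0.93, SE 0.15, adjusted p = 0.000466, edgeR), again in all 20. HDAC1 was higher at both times by 0.42 and 0.35 (adjusted p = 0.0176 and 0.0486, edgeR), calls that were lost in 8 and 17 of 20 alternatives, among them without any one of the 2D samples (0.29 to 0.43). Further called genes, named after their values were seen, were HDAC2 at day 7 (0.35) and L3MBTL3 and TLE4 at day 14 (0.84 and 0.81).

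Of the 4 genes listed as targets of NOTCH in B cells, all tested, 0 were called higher and 1 lower at day 7 (beside 22.2% and 21.2% of all genes), and 1 higher and 1 lower at day 14 (19% and 17.2%). MYC, a regulator of growth, averaged 458, 92.7 and 108 CPM in the 3 groups, with log2 fold changes of -2.30 and -2.09 (SE 0.21 and 0.20, adjusted p = 8.69e-06 and 2.1e-05, edgeR) that held in all 20 alternatives. FCER2, which encodes CD23, averaged 120, 126 and 190 CPM and rose at day 14 against 2D (0.67, SE 0.16, adjusted p = 0.00625, edgeR), also in all 20. It was also higher at day 14 than at day 7 (0.60, SE 0.16, adjusted p = 0.0153, edgeR), a call lost in 5 of 20 alternatives (adjusted p 0.00147 to 0.0688), among them without day 7 replicate 2 or 3 (both 0.53). CR2, which encodes CD21, and SEMA7A were not called in any comparison, with log2 fold changes of -0.10 and 0.02 at day 7 and -0.05 and 0.06 at day 14.

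For each gene tested, the most similar courses over the 9 samples were sought among genes with a mean of at least 10 CPM, by Pearson's r of log2 CPM. For HES1 these were CHPT1 (r = 0.97), PRXL2C (0.97) and CD52 (0.96), and for DTX4 they were POLR2K (0.98), PPP3CA (0.97) and PDCD10 (0.97). DTX1, whose values turn on day 14 replicate 1, was nearest to B3GNT7 (0.98), STK11 (0.96) and DNAJC15 (0.95), and RBPJ to VGLL4 (0.97), MOAP1 (0.94) and TAGAP (0.94). SPEN was nearest to TET2, KAT6B and BAZ1B (each 0.93), NOTCH2 to MMD (0.94), SLC39A9 (0.91) and AGO3 (0.90), and MAML2 to ANKH (0.90), USP25 (0.89) and FBXL20 (0.87). Neighbours of MAML1 included HDAC8 (0.86) and PAX5 (0.86), and NOTCH1 had the least similar neighbours, DMPK (0.81), ATPAF2 (0.77) and ZSCAN9 (0.77). The points share 3 groups and 9 libraries, the best of 8704 or 8705 genes is high by selection, and the values are descriptions. Among the 10 genes themselves, r ran from -0.82 (NOTCH2 and DTX1) to 0.78 (HES1 and HES4). The r with HES1 was 0.31 for NOTCH1, -0.29 for NOTCH2, 0.02 for RBPJ, 0.24 for MAML1, 0.33 for MAML2 and -0.26 for SPEN.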

How the data were processed

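RNA-seq of 9 MEC1 samples (3 each of 2D, 3D day 7 and 3D day 14) was analysed. Per the submitters' processing notes, the authors trimmed reads with Trimmomatic (version 0.39), aligned them to GRCh38 with STAR (2.5.3a) and assigned them to genes with featureCounts (1.6.4). The deposited values are raw counts per gene symbol, with the summed exon length. The strand setting and the handling of reads with several alignments are not given in the sources used here. The table held 0 sample columns without a matching label.

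The filter kept genes that exceeded a CPM of 1 in 3 or more samples, 13463 of 51726 with any count. In R (version 4.3.3), edgeR (version 4.0.16) computed TMM factors, fitted all 9 samples with a mean per group, and tested 3 contrasts by the quasi-likelihood test, with Benjamini-Hochberg adjustment over all retained genes and a threshold of 0.05. CPM values are TMM-normalized, a prior count of 2 was added for log2 CPM, and intervals are 95%. RPKM values are CPM per kilobase of exon. Between 54662799 and 85968686 counts per sample were available, a depth at which replicate pairs varied beyond counting error. Genes under the filter had few counts.

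The members and lists were chosen with earlier results of these data known. All 10 genes were named whatever their change. Of the further pathway genes, every tested gene of a list with at most 5 tested genes was named, and in longer lists the 2 with the smallest p-values among those called in each contrast with 2D. For each gene tested, the 3 most similar genes, and genes with overlapping exons, were named. A few genes that these rules name are not reported here. Replicate numbers were not treated as pairs. Alternatives were DESeq2 (version 1.42.0) and its size factors, total counts, TMM without immunoglobulin, ribosomal protein and mitochondrial genes, other filters, fits on 6 samples, the replicate block, removal of a length or GC trend by loess (span 0.4), a minimum log2 fold change of 1, and leaving out each sample. The fits of HES4 without a filter and the alternatives for named pathway genes were chosen after seeing the data. The pipeline was tested on simulated data. Exon overlaps and GC content came from the deposited gene models and the GRCh38 sequence. The lengths of all 59050 genes equalled the union of their exons.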

Additional observations from a re-analysis of the deposited data

Results flagged for a closer look

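Of the 9 genes that passed the filter, 2 differed (beside 28.1% of all genes) in their change against 2D between day 7 and day 14, by the direct comparison of the time points in edgeR's quasi-likelihood test. HES1 was below 2D at day 7 and above it at day 14, with a log2 fold change of 2.61 between the time points (adjusted p = 0.000599, higher in 3 of 3 day 14 samples than in every day 7 sample). DTX1 differed by 1.07 (adjusted p = 0.0486), where 1 of 3 day 14 samples, replicate 1, was far above the rest, and the value without it was 0.29. HES4, under the filter, differed by 2.58 in the fit without a filter (adjusted p = 0.0353), a call lost in 7 of 14 alternatives.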

How the results depend on the processing

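Of 1442 values of single genes recomputed under alternatives, 1288 kept their direction and their side of the threshold, 118 lost and 4 gained a call, and 32 changed sign, all of them values that were not called. Total counts alone moved the middle of all log2 fold changes to -0.16 at day 7 and -0.18 at day 14. With them, 0 of the 10 genes were higher at day 7 and 1 between the time points, and of the other pathway genes 6 were higher at day 7 and 5 lower at day 14. Of all 13463 genes, 2157 were then higher at day 7, against 2985 in the main fit. At day 14, 3246 of all genes were lower (main fit 2318), and between the time points 1734 were higher (main fit 1951). Requiring a log2 fold change of at least 1 left 0 of the 10 genes higher at day 7, and of the other pathway genes 5 higher and 3 lower at day 7, 4 higher at day 14, and 4 higher and 1 lower between the time points. That limit left 1114 of all 13463 genes higher and 1641 lower at day 7, and 981 higher at day 14. Between the time points it left 984 of all genes higher and 472 lower. Without a filter, or with filterByExpr, 2 of the 10 genes were lower at day 7, HES4 being the second. Of all genes, 2874 of 51726 were lower at day 7 without a filter and 2954 of 19286 with filterByExpr. With only the 6 samples of the contrast, 1 of the 10 genes was higher and 2 other pathway genes were lower between the time points, and with the GC trend removed 1 of the 10 was higher. Of all 13463 genes, 1329 were higher and 1124 lower between the time points with only the 6 samples. With the GC trend removed, 1993 of all genes were higher.

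Leaving out 1 sample at a time gave 0 to 1 of the 10 genes higher and 0 to 2 lower at day 7, 1 to 3 higher at day 14 and 1 to 2 higher between the time points. For the other pathway genes it gave 6 to 12 higher and 7 to 8 lower at day 7, 12 to 18 higher and 2 to 3 lower at day 14, and 11 to 15 higher and 1 to 5 lower between the time points, with 1 in the fit without day 7 replicate 2. Of all 13463 genes, these fits called 2117 to 3618 higher and 2309 to 3586 lower at day 7. At day 14 they called 1617 to 2862 higher and 1694 to 2468 lower. Between the time points, 1188 to 2200 of all genes were higher and 1088 to 2157 lower.

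The sign changes were as follows, and their cause was not tested. For NOTCH1 the day 7 value was -0.091 with total counts and -0.12 to 0.21 when samples were left out, and the value between the time points was -0.18 with the GC trend removed and -0.022 to 0.33 when samples were left out. For NOTCH2 the day 7 value was -0.043 under the replicate block and -0.76 to 0.55 when samples were left out, and between the time points -1.40 to 0.17. MAML2 at day 7 ranged from -0.32 to 0.074 and SPEN between the time points from -0.43 to 0.10 when samples were left out. DTX1 at day 7 was 0.026 with the GC trend removed. RBPJ at day 14 was 0.061 with the length trend removed, 0.053 with the block and the length trend, 0.15 with the GC trend removed and -0.19 to 0.12 when samples were left out, and between the time points -0.080 to 0.23. MAML1 between the time points was -0.013 without a filter, -0.00248 with the GC trend removed and -0.15 to 0.22 when samples were left out. HES4 at day 14 was 0.062 with DESeq2 size factors, 0.019 under the block, 0.049 with the GC trend removed, 0.061 by DESeq2 and -0.26 to 0.20 when samples were left out (0.0094 without 2D replicate 1, 0.034 without day 14 replicate 2 and 0.14 without day 14 replicate 3).

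The replicate numbers did not pair the samples across all 3 groups. Of 9 same-numbered pairs, 2 had deviations that correlated with an r over 0.1 (range -0.10 to 0.19), and 0 samples correlated best with their own number in both other groups. Between 2D and day 14 all 6 samples correlated best with their own number (r of 0.093 to 0.19), and 0 of 6 did so between day 7 and either of them. With the replicate number as a block, 1 of the 10 genes, HES1, was higher between the time points, since DTX1 had a value of 0.89 (adjusted p = 0.0575, edgeR). Under the block, 1818 of all 13463 genes were higher between the time points.

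HES4, JAG2, DLL3, DLL4 and LFNG had few counts per sample, and counts of JAG2, DLL4 and LFNG also spread widely between replicates. NOTCH2 passed the filter, but its day 7 interval includes a doubling.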
